A study of Capra hircus with 3 samples.

Results

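The genes described here are those of lipid synthesis and storage in goat skin, measured on sheep microarrays. They were chosen by name. A probe was taken if its gene name was LEP, ADIPOQ, LPL, SCD, FASN, ACACA, PPARG, PLIN1 or PLIN2 or began with FABP, or if its description held a lipid term such as fatty acid, acyl-CoA, apolipoprotein, perilipin, stearoyl, sterol or squalene, with hydroxysteroid enzymes left out. The rule reads names and descriptions only. It gave 32 of the 15008 probes that were not controls, for 21 gene names. Of these, 8 probes were put in an adipocyte group (LEP, LPL, PLIN1, PPARG), 10 in a sebaceous and fatty acid synthesis group (ACACA, FABP5, FASN, PLIN2, SCD, SCD5) and 7 in a cholesterol and sterol group (LCAT, LIPA, OSBP, OSBPL7, SCAP, SQLE). A further 4 probes were for other lipid genes (ACOT9, APOE, PLIN5), and 3 matched by name only, namely a pair for the RNA-editing family member APOBEC3F and TC62829, a record described by a bacterial protein.

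Skin was compared between 3 female adult Arbas Cashmere goats kept under a short photoperiod and 3 under natural conditions, all 2 years old. Goats under the short photoperiod were outdoors for grazing and feeding from 9:30 to 16:30 and spent the remaining hours in a dark shed at about 0.1 lux, 1 °C cooler than outside, while control goats grazed in natural conditions. The sample titles call the control condition long photoperiod, whereas the channel labels call it natural. Each of the 3 arrays held a pair of goats of the same parent, with the short photoperiod RNA in Cy5 and the natural RNA in Cy3. The dyes were swapped on 0 arrays, so dye bias and photoperiod cannot be told apart. A log2 ratio below 0 is a lower signal under the short photoperiod. P-values and confidence intervals concern only these 3 pairs. They rest on the spread between the pairs, which limma moderated with the spread over all probes tested. The tissue was whole skin, in which fewer cells of a type and less RNA per cell cannot be told apart.

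Skin stores lipid in adipocytes below and within the dermis, and sebaceous glands next to the hair follicles fill their cells with lipid and release it as sebum. Adipocytes take up fatty acids that lipoprotein lipase frees from circulating triglyceride and keep them in droplets coated by perilipins. Sebaceous cells rely more on making fatty acids themselves, from acetyl-CoA carboxylase and fatty acid synthase to the desaturases. Cholesterol is made through squalene and is also recovered from lipoproteins in lysosomes.

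The labels of these groups could be checked against few markers. Of 19 adipocyte genes listed as markers, 6 had a probe, and ADIPOQ and FABP4 were not analysed here. Of 31 genes of sebaceous glands and fatty acid synthesis, 9 had a probe, all of them for general lipid enzymes or lipid carriers. The sebaceous genes AWAT1, AWAT2, FAR2, MC5R and ELOVL3 were not analysed here. The second group therefore describes fatty acid synthesis and droplets in skin as a whole and is not a measure of sebaceous glands alone.

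Probe sequences are shown for LEP and PLIN2, where both probes of a gene share most of their bases, and for FASN, PPARG and LIPA, whose results are described below. Capitals mark the bases shared by the probes of a pair, all sequences run 5′ to 3′ in the sense of the transcript, and each was read from the array files.
LEP probe 1: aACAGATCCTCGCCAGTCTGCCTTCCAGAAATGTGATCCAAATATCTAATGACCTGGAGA
LEP probe 2: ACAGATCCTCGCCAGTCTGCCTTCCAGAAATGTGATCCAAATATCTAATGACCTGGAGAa
PLIN2 probe 1: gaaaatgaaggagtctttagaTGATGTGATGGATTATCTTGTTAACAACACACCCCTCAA
PLIN2 probe 2: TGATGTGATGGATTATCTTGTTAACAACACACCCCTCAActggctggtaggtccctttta
FASN probe 1: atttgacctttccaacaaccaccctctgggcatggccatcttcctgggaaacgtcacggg
PPARG: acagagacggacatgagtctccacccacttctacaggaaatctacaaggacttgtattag
LIPA: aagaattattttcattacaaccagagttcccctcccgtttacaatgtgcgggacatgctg

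The probes of a pair are numbered along their record. They shared 59 bases for LEP, PLIN1 and PLIN5, 58 for ACACA, 40 for APOBEC3F, 39 for PLIN2 and 20 for LPL, and 0 for SCD5 and SQLE. Similar values of overlapping probes are therefore repeated readings of the same stretch of RNA. The probes were designed on sheep sequence, and 0 of the 23 records behind them were found among the goat RefSeq transcripts used here. The effect of mismatches between the species was not tested.

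Most lipid probes had a mean below 0. This was the case for 26 of the 32 probes, against 51.1% of all 14977 probes tested, and for 16 of the 21 genes when the probes of a gene were averaged. The median log2 ratio was -0.20 over the lipid probes and -0.01 over all probes. With each array centred on its median in place of loess, these medians were -0.16 and 0.0033. Several lipid probes then changed sign, in either direction, so the count below 0 depends on the normalization. Of the 32 probes, 13 were lower on all 3 arrays (22% of all probes) and 3 were higher on all 3 (21.6% of all probes). Of the 21 genes, 7 were lower and 2 higher on all 3. The shares over all probes are not by gene, so they are no reference for the gene counts. These counts include the 3 probes matched by name only, each of which was lower on all 3 arrays.

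These differences did not pass the adjusted test. By limma with Benjamini-Hochberg adjustment over all probes, 0 lipid probes had an adjusted p under 0.05 (0.00668% of all probes), and the lowest adjusted p was 0.17. At an unadjusted p under 0.05, 6 lipid probes were lower (9.35% of all probes) and 0 were higher (9.11%). The 6 were the 3 probes of LPL and those of PPARG, LIPA and APOE. A mean at least 2-fold lower was seen for 0 lipid probes (0.414% of all probes) and a mean at least 2-fold higher for 0 (0.427%).

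**Figure D1:**
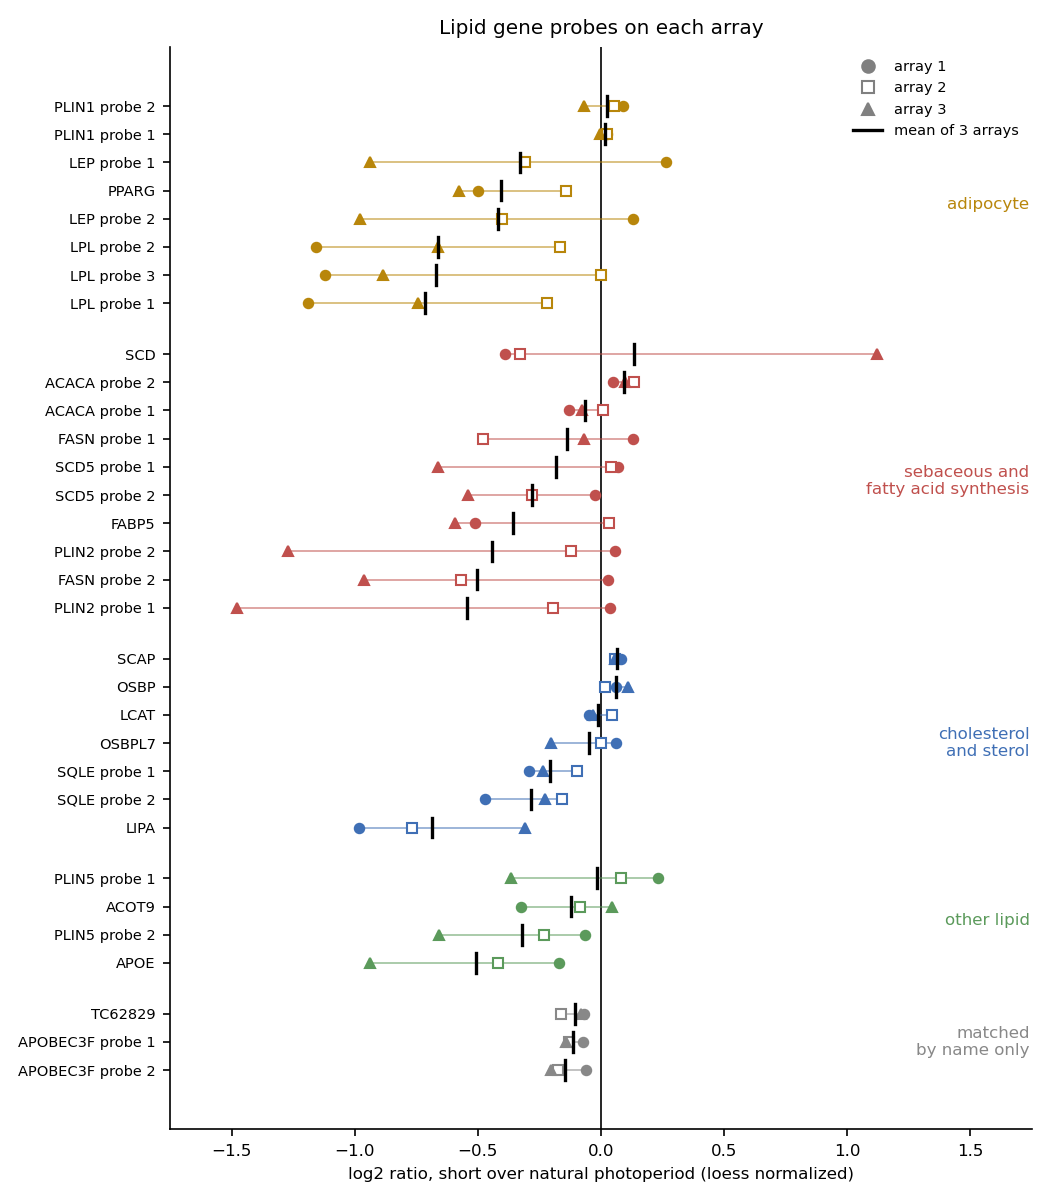
Each row is a probe, coloured by group, with its log2 ratio of short over natural photoperiod on arrays 1, 2 and 3 (circle, square, triangle) and the mean of the 3 arrays as a black bar. The bars of 26 of 32 probes lie left of 0, the LPL and LIPA bars farthest, and PLIN2 and SCD show 1 array far from the others.

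Among the adipocyte genes, the enzyme LPL was lower in the goat under the short photoperiod in every pair by probes 1 and 2. LPL frees fatty acids from triglyceride at the vessel wall for uptake by fat cells. Its probe 1 had log2 ratios of -1.19, -0.22 and -0.74 on arrays 1, 2 and 3. Probe 2 had -1.16, -0.17 and -0.66. Probe 3, designed on another record, had -1.12, -0.00 and -0.89. The 3 probes thus ranked the arrays alike, with pair 1 lowest and pair 2 near 0.

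In normalized intensity, the linear signal after scaling within and between arrays, LPL probe 1 read 1138, 899 and 967 in the goats under the short photoperiod and 2595, 1046 and 1619 in their natural partners. The groups overlapped, because the natural goat of pair 2 lay below the highest goat under the short photoperiod. The mean log2 ratio of probe 1 was -0.72 ± 0.49 (SD, n = 3), with a 95% confidence interval from -1.24 to -0.20 and a limma adjusted p of 0.20. The means of probes 2 and 3 were -0.66 ± 0.50 and -0.67 ± 0.59 (SD, n = 3), with limma adjusted p-values of 0.22 and 0.25.

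PPARG, the nuclear receptor that drives fat cell differentiation and is also used by sebaceous cells, had log2 ratios of -0.50, -0.14 and -0.58. Its normalized intensity was 24355, 20590 and 17302 under the short photoperiod and 34452, 22751 and 25799 in the natural partners. Every pair had the lower value under the short photoperiod, and the groups overlapped. The mean log2 ratio was -0.41 ± 0.23 (SD, n = 3), with a limma adjusted p of 0.22. Under median centring of each array in place of loess, it was -0.06.

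The pairs disagreed for LEP, which encodes the fat cell hormone leptin. Probe 1 had log2 ratios of 0.26, -0.31 and -0.94, and probe 2 had 0.13, -0.40 and -0.98. The normalized intensity of probe 1 was 367, 410 and 362 under the short photoperiod and 306, 509 and 693 in the natural goats, so the spread lay among the natural goats. The mean log2 ratios were -0.33 ± 0.60 and -0.42 ± 0.56 (SD, n = 3), with limma adjusted p-values of 0.50 and 0.38. Without pair 3 they were -0.02 and -0.14.

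PLIN1 coats the large lipid droplet of fat cells. The log2 ratios of its probe 1 were 0.03, 0.02 and -0.00, and those of probe 2 were 0.09, 0.05 and -0.07. Both lay close to 0 on every array, with means of 0.02 ± 0.02 and 0.02 ± 0.08 (SD, n = 3). The 95% confidence interval of probe 1 ran from -0.23 to 0.26, and under median centring the means were -0.29 and -0.24. Probe 1 read 237 to 285 in normalized intensity over the 6 goats, well above background in each.

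In the adipocyte group as a whole, 4 of 8 probes were lower on all 3 arrays (22% of all probes). The 4 were for LPL and PPARG. Of the 8, 0 were higher on all 3 (21.6% of all probes). The other adipocyte genes with a probe were few. PNPLA2, the lipase that starts triglyceride breakdown in fat cells, had log2 ratios of 0.38, -0.14 and -0.97, an order of arrays like that of LEP. AGPAT2, an acyltransferase of triglyceride synthesis, had 0.04, 0.09 and 0.02.

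In the sebaceous and fatty acid synthesis group, the ratios were set largely by pair 3. PLIN2, which coats lipid droplets in most cells including sebocytes, had log2 ratios of 0.04, -0.20 and -1.48 with probe 1 and 0.06, -0.12 and -1.27 with probe 2. The normalized intensity of probe 1 was 45898, 44168 and 37301 under the short photoperiod and 44773, 50571 and 104029 in the natural goats. The natural goat of pair 3 stood far above the other 5 goats. The mean log2 ratios were -0.55 ± 0.82 and -0.44 ± 0.72 (SD, n = 3), with limma adjusted p-values of 0.41 and 0.44. Without pair 3 they were -0.08 and -0.03, and under median centring they were 0.20 and 0.34.

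FASN, the enzyme that builds palmitate, was read by 2 probes from different records that did not give the same picture. Probe 1 had log2 ratios of 0.13, -0.48 and -0.07, and its normalized intensity was 222, 225 and 209 under the short photoperiod and 203, 314 and 220 in the natural goats. Probe 2 had log2 ratios of 0.03, -0.57 and -0.96, with normalized intensities of 42298, 40136 and 38013 and of 41542, 59534 and 74154. Both were lower in pair 2 and close to 0 in pair 1, and they parted in pair 3. The means were -0.14 ± 0.31 and -0.50 ± 0.50 (SD, n = 3), with limma adjusted p-values of 0.64 and 0.29. The mean of probe 1 was 0.03 without pair 2. Under median centring the means parted further, at -0.47 for probe 1 and 0.21 for probe 2.

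SCD, the desaturase that makes oleate and palmitoleate, ran the other way in pair 3. Its log2 ratios were -0.39, -0.33 and 1.12. Its normalized intensity was 3297, 4104 and 3416 under the short photoperiod and 4327, 5149 and 1569 in the natural goats. The natural goat of pair 3 was thus the lowest of the 6 for SCD and the highest for PLIN2 and FASN probe 2. The mean log2 ratio of SCD was 0.13 ± 0.86 (SD, n = 3), with a limma adjusted p of 0.84, and it was -0.36 without pair 3.

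SCD5 is a second desaturase, from another gene. Its probe 1 had log2 ratios of 0.07, 0.04 and -0.66, and probe 2, which shares 0 bases with it, had -0.02, -0.28 and -0.54. Only pair 3 was clearly below 0 with both probes. The means were -0.18 ± 0.42 and -0.28 ± 0.26 (SD, n = 3), with limma adjusted p-values of 0.61 and 0.33, and that of probe 1 was 0.06 without pair 3.

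FABP5, a fatty acid binding protein of epidermis and sebaceous glands, had log2 ratios of -0.51, 0.03 and -0.59, the same order of arrays as PPARG. Its normalized intensity was 50887, 55452 and 46866 under the short photoperiod and 72518, 54241 and 70631 in the natural goats. The mean log2 ratio was -0.36 ± 0.34 (SD, n = 3), with a limma adjusted p of 0.31, but it was 0.45 under median centring. ACACA, the carboxylase that commits acetyl-CoA to fatty acid synthesis, was at the limit of detection. Its probe 1 was well above background on 0 of 3 arrays under the short photoperiod and on 2 in the natural goats, and probe 2 on 1 and 2, so no change can be read from them.

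The further genes of fatty acid and triglyceride synthesis on the list went both ways. ACLY, which supplies acetyl-CoA for lipid synthesis, had log2 ratios of -0.35, -0.24 and -0.40 and a limma adjusted p of 0.21. DGAT1, which makes triglyceride, had 0.43, 0.25 and 0.29 with one probe and 0.29, 0.19 and 0.31 with the other, at limma adjusted p-values of 0.22 and 0.25. ACLY was thus lower and DGAT1 higher in all 3 pairs. The 6 probes of this list that were not among the 32 had a median log2 ratio of 0.03. Of them, 2 were lower (22% of all probes) and 2 higher (21.6%) on all 3 arrays.

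In the cholesterol and sterol group, the lysosomal lipase LIPA and the squalene epoxidase SQLE were lower in all 3 pairs. LIPA releases cholesterol and fatty acids from lipoproteins taken up by the cell. Its log2 ratios were -0.98, -0.77 and -0.31. Its normalized intensity was 11884, 10291 and 11605 under the short photoperiod and 23468, 17507 and 14383 in the natural goats. Here the groups did not overlap, and the goats under the short photoperiod lay close together. The mean log2 ratio was -0.69 ± 0.34 (SD, n = 3), with a 95% confidence interval from -1.09 to -0.28. Its limma adjusted p of 0.17 was the lowest of all lipid probes, and under median centring the mean was -0.52.

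SQLE carries out the first oxygenation of cholesterol synthesis. Its probe 1 had log2 ratios of -0.29, -0.10 and -0.24, and probe 2 had -0.47, -0.16 and -0.23. For probe 2 the normalized intensity was 16794, 17172 and 16565 under the short photoperiod and 23263, 19166 and 19425 in the natural goats. The groups did not overlap with either probe. The means were -0.21 ± 0.10 and -0.29 ± 0.16 (SD, n = 3), with limma adjusted p-values of 0.34 and 0.27, and under median centring they were 0.21 and -0.03.

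The other members of this group had mean log2 ratios between -0.05 and 0.06. SCAP, which escorts the sterol-regulated transcription factors, had log2 ratios of 0.08, 0.06 and 0.06. The oxysterol binding protein OSBP had 0.06, 0.02 and 0.11. OSBPL7, a related protein, had 0.06, -0.00 and -0.20, and LCAT, which esterifies plasma cholesterol, had -0.05, 0.04 and -0.03. SCAP and OSBP were higher on all 3 arrays by small margins, and under median centring SCAP had a mean of -0.27 and OSBPL7 of -0.26. Of 33 sterol genes listed, 5 had a probe. CYP51A1, the sterol demethylase, had -0.56, 0.04 and 0.38, and MVK, mevalonate kinase, had -0.19, 0.17 and 0.07.

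Among the other lipid genes, APOE, the apolipoprotein by which lipoproteins are taken up and a product of macrophages among other cells, had log2 ratios of -0.17, -0.42 and -0.94. Its normalized intensity was 30241, 27543 and 27447 under the short photoperiod and 34086, 36801 and 52587 in the natural goats. The groups did not overlap. The mean log2 ratio was -0.51 ± 0.39 (SD, n = 3), with a limma adjusted p of 0.23, and it was -0.30 without pair 3 and 0.02 under median centring. PLIN5, a droplet protein of oxidative tissues, had 0.23, 0.08 and -0.36 with probe 1 and -0.07, -0.23 and -0.66 with probe 2. The PLIN5 probes share 59 bases, yet they differed on every array and only probe 2 was below 0 on all 3. ACOT9, a mitochondrial acyl-CoA thioesterase, had -0.32, -0.08 and 0.05.

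Over all 32 probes, the normalized intensities of the 2 groups of goats did not overlap for 4, all lower under the short photoperiod (7.16% of all probes). These were LIPA, both SQLE probes and APOE. Groups that did not overlap with the short photoperiod above were seen for 0 (6.44% of all probes). The 3 probes matched by name only were each lower on all 3 arrays, with log2 ratios between -0.20 and -0.06.

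**Figure D2:**
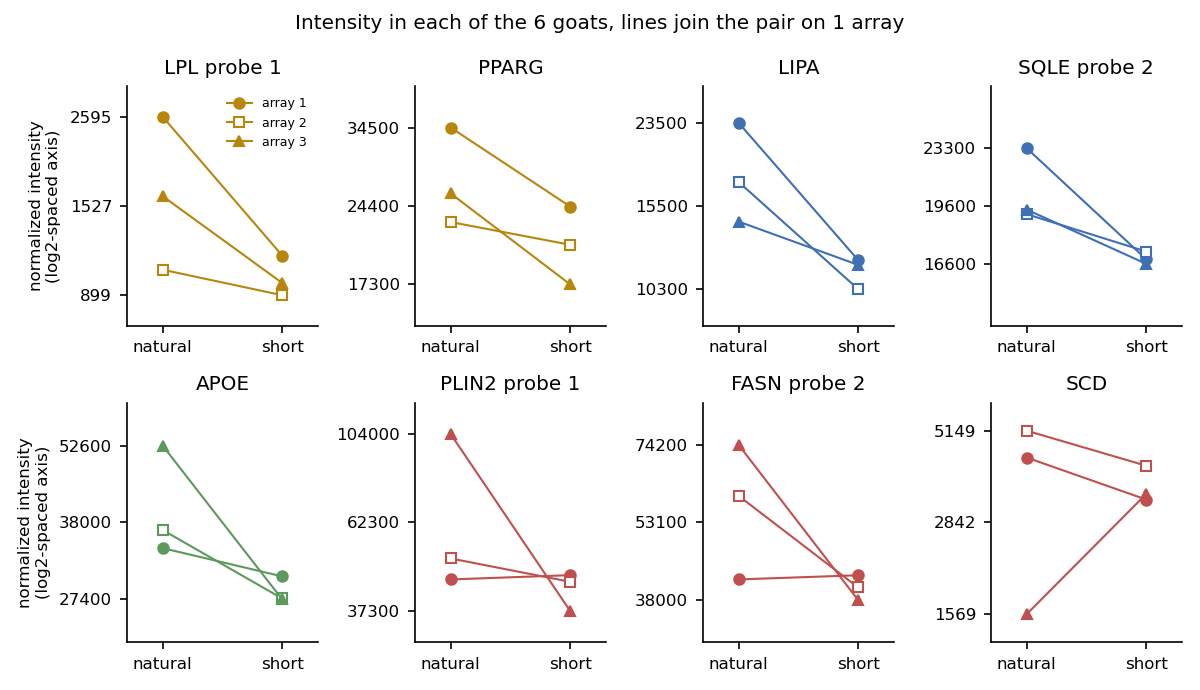
Normalized intensity (log2-spaced axis, a separate range for each gene) in the 3 natural and the 3 short photoperiod goats, with a line joining the goats of an array. For LIPA, SQLE probe 2 and APOE the groups do not overlap, while for PLIN2 probe 1 and SCD the natural goat of array 3 lies apart, at 104029 and 1569.

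The adipocyte, sebaceous and cholesterol groups were compared by their mean on each array. The adipocyte mean log2 ratio was -0.43, -0.15 and -0.61 on arrays 1, 2 and 3. The sebaceous and fatty acid synthesis mean was -0.07, -0.18 and -0.44. The cholesterol and sterol mean was -0.23, -0.13 and -0.12. These means were below 0 on all 3 arrays, where the mean of all probes lay between -0.02 and -0.00. By the median in place of the mean, the sebaceous group was at 0.03 on array 1 and the cholesterol group at -0.00 on array 2.

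The median log2 ratio was -0.41 for the adipocyte probes, -0.23 for the sebaceous and fatty acid synthesis probes and -0.05 for the cholesterol and sterol probes. With each gene counted once, a choice made after the data were seen, it was -0.39 over 4 genes, -0.28 over 6 and -0.03 over 6. Without array 3 the 3 medians were -0.23, -0.12 and -0.00, and without array 1 the cholesterol median was -0.10. Under median centring they were -0.59, -0.00 and -0.03, so the sebaceous and cholesterol groups changed places. Of the probes in each group, 4 of 8, 1 of 10 and 3 of 7 were lower on all 3 arrays (22% of all probes). The 4 were for LPL and PPARG only, and the 3 for LIPA and SQLE only.

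In 0 of the 3 comparisons between groups was the mean difference larger than its SD over the arrays. The adipocyte mean minus the sebaceous mean was -0.36, 0.03 and -0.16 (mean -0.17 ± 0.20, SD, n = 3). The adipocyte mean minus the cholesterol mean was -0.21, -0.02 and -0.49 (mean -0.24 ± 0.24). The sebaceous mean minus the cholesterol mean was 0.16, -0.05 and -0.32 (mean -0.07 ± 0.24). The groups hold different genes, so these values are descriptions and were not tested.

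**Figure D3:**
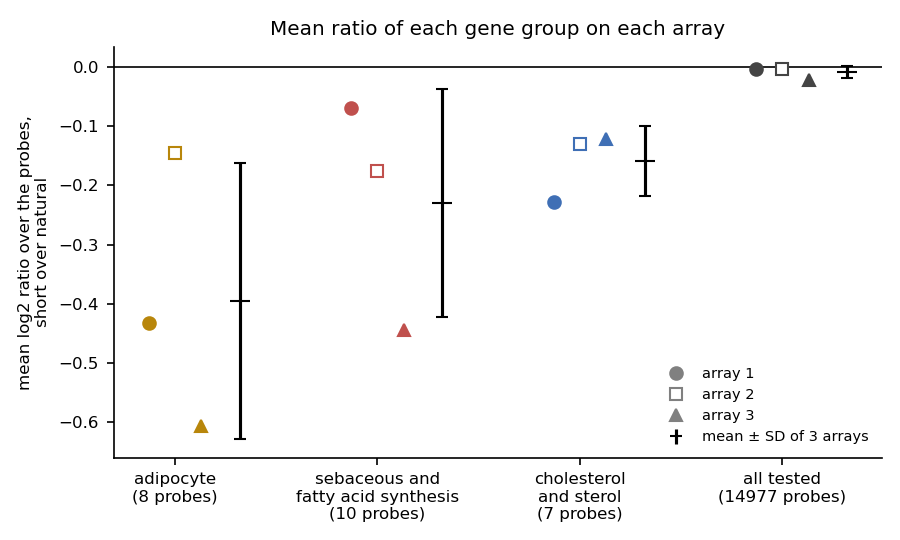
Mean log2 ratio of short over natural photoperiod over the probes of each group on each array (circle, square, triangle), with the mean ± SD of the 3 arrays in black. The adipocyte group ranges from -0.61 to -0.15, the cholesterol and sterol group from -0.23 to -0.12, and all tested probes stay near 0.

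For several genes the goats under natural conditions differed more among themselves than those under the short photoperiod. The highest goat over the lowest was 3.28-fold among natural goats and 1.25-fold under the short photoperiod for SCD, 2.32-fold and 1.23-fold for PLIN2 probe 1, 2.27-fold and 1.13-fold for LEP probe 1, and 2.48-fold and 1.27-fold for LPL probe 1. The natural spread was the wider for 21 of the 32 probes (65.6%), against 55.4% of all 14868 probes with a value on every array. A spread of at least 2-fold was found for 7 of 32 lipid probes among natural goats (21.9%, against 13% of all probes) and for 0 of 32 under the short photoperiod (against 10.9%). The 7 probes belong to LEP, LPL, PLIN2, SCD and SCD5. None of these shares was tested, and dye and photoperiod cannot be told apart in them either.

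The natural goat of pair 3 gave the highest of the natural values for PLIN2, LEP, APOE, PLIN5, SCD5, FASN probe 2 and LPL probe 3. The natural goat of pair 1 gave the highest for PPARG, FABP5, LIPA, SQLE and LPL probes 1 and 2. The natural goat with the highest value thus differed between genes. Some margins were small, as for FABP5, at 72518 in pair 1 and 70631 in pair 3. Of the 7 probes with a natural spread of at least 2-fold, all but LPL probe 1 and SCD were highest in pair 3. Across the 32 probes, the log2 ratios of arrays 1 and 2, 1 and 3, and 2 and 3 had a Pearson's r of 0.18, 0.06 and 0.23, against 0.31, 0.18 and 0.36 over all probes. These correlations run over probes, some of which overlap, and are given as a description.

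**Figure D4:**
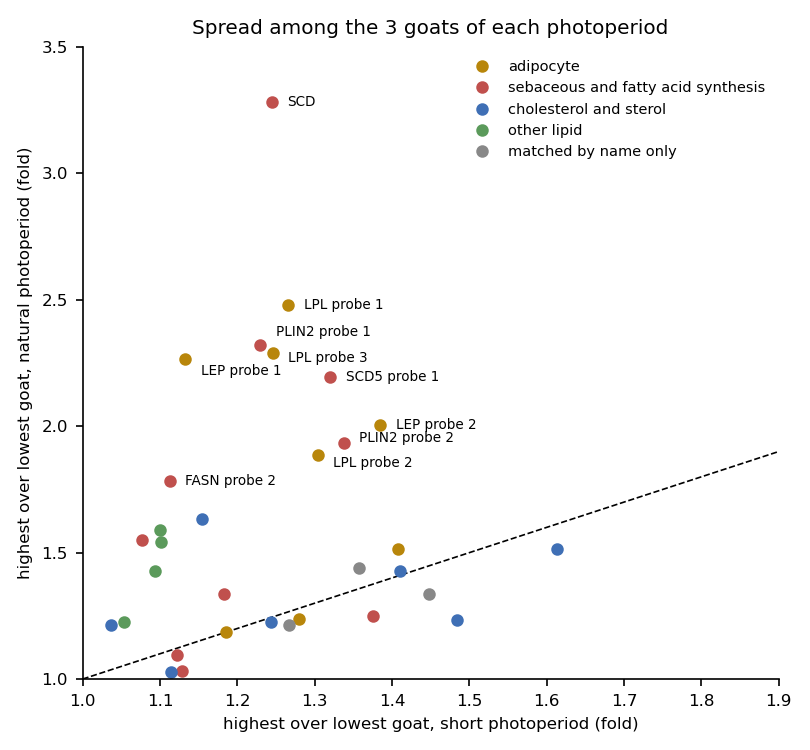
Highest over lowest normalized intensity among the 3 goats of each photoperiod (fold, linear axes with different ranges), 1 point per probe, with a dashed line of equality. Points above the line, 21 of 32, are wider among natural goats, SCD most of all at 3.28-fold against 1.25-fold.

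Markers of other cell types in the skin had ratios away from 0 as well, with 0 of the leukocyte, endothelial and keratin probes at a limma adjusted p under 0.05. Of 14 leukocyte probes, 13 were lower on all 3 arrays (22% of all probes), with a median log2 ratio of -0.36. Their summed normalized intensity was 111694 to 142500 under the short photoperiod and 160949 to 192571 in the natural goats. Both CD4 probes were at background, with 0 arrays well above it under the short photoperiod. Of 8 endothelial probes, 5 were lower on all 3 arrays (22% of all probes), with a median of -0.32. The sum of the 8 was 26485 to 31121 against 36078 to 40821. Both probes of the endothelial gene KDR had means above 0, at 0.33 and 0.27.

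Of 30 keratin probes, 17 were higher on all 3 arrays (21.6% of all probes), with a median log2 ratio of 0.62. Their summed normalized intensity was 1445696 to 1565456 under the short photoperiod and 826451 to 1395144 in the natural goats. Some bright keratin probes, such as K33, had no value on 1 array. They could not count as higher on all 3, and the sums of different arrays cover different probes. LPL, LIPA and APOE are made by macrophages as well as by other cells of the skin, and LPL acts at the endothelium. The part of these cell types in the lipid values was not tested.

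The normalization mattered for bright and for dim probes. With each array centred on its median, which leaves any trend of the ratio with intensity in place, 10 lipid probes were lower (17.1% of all probes) and 2 higher (17.2%) at an unadjusted p under 0.05. A limma adjusted p under 0.05 was then found for 2 lipid probes (12.6% of all probes). These were LPL probe 1, at -0.83 and an adjusted p of 0.04999, and ACACA probe 1, at -0.55 and 0.0405, which was not well above background under the short photoperiod. LPL and LIPA kept their direction under all alternatives run, with means from -1.004 to -0.41 over the LPL probes and from -0.87 to -0.52 for LIPA. FABP5, PLIN2, FASN probe 2, SQLE probe 1 and APOE had means above 0 under median centring. Dim probes moved down, with ACACA probe 2 going from 0.09 to -0.38, SCAP from 0.06 to -0.27 and PLIN1 probe 1 from 0.02 to -0.29. These shifts were smaller than that of the bright FABP5, from -0.36 to 0.45.

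**Figure D5:**
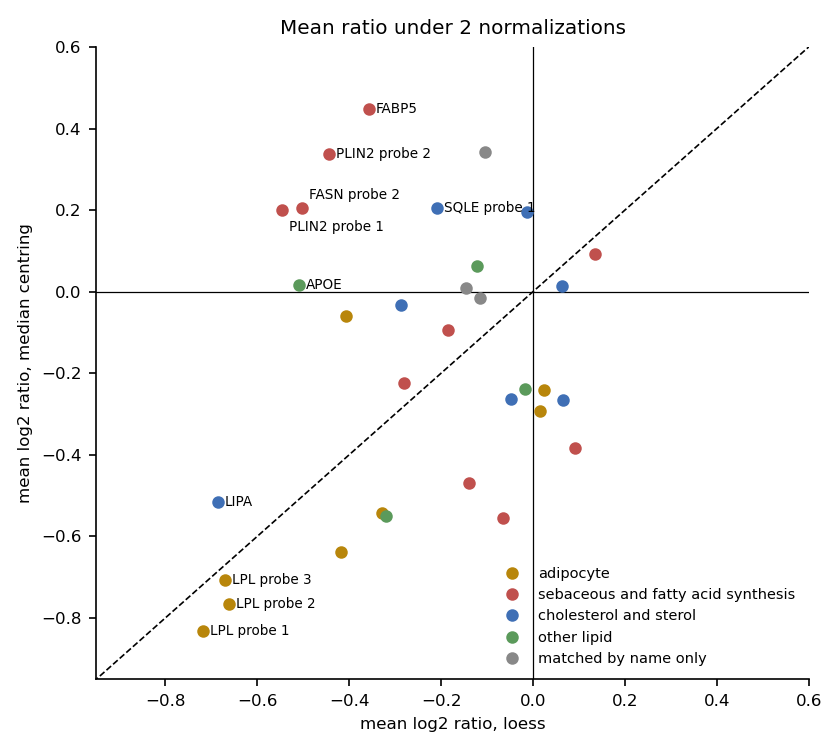
Mean log2 ratio of each probe after loess (horizontal axis) and after median centring (vertical axis), with a dashed line of equality. LPL and LIPA lie below 0 on both axes, and FABP5, PLIN2, FASN probe 2, SQLE probe 1 and APOE lie left of 0 after loess and above 0 after median centring.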

How the data were processed

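Goat skin RNA was hybridised by the authors to 3 Agilent sheep arrays with 2 dyes and read with Feature Extraction 10.7.3.1 (per the file headers). The deposited spot and local background values are intensities before normalization. The deposited Feature Extraction ratio is a log10 ratio, and the authors' value table holds log2 ratios of Cy5 over Cy3. These 2 served as alternatives only.

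Intensities were corrected with normexp (offset 50) on all spots and normalized by loess within arrays without control spots, in R 4.3.3 with limma 3.58.1. Spots with any of 4 outlier flags had weight 0 and were left out. Spots of a probe were averaged, and probes on at least 2 arrays were tested (lmFit, eBayes). The ratio within an array already pairs the goats of the same parent, a pairing that comes from the paper. Intensities of single goats were taken after loess and Aquantile normalization. With 3 pairs no sign test can reach 0.05, so none is given. The median intensity was 4587 to 7120 in Cy5 and 2688 to 3911 in Cy3, and the number of arrays limits the precision. There was 1 slide and 1 scan for all arrays, so neither could enter as a block.

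The members, groups and marker lists were chosen with earlier results of these data known. Each member was placed in a group by its name and description. Genes named are the listed adipocyte and lipogenic genes above background and, per group and over all members, the 5 largest means in each direction with the same sign on every array, and the remaining members were added to account for all of them. Marker lists (genes found of listed) were adipocyte 6 of 19, sebaceous and fatty acid synthesis 9 of 31, cholesterol 5 of 33, fatty acid oxidation 3 of 14, skeletal muscle 2 of 15, leukocyte 7 of 13, epidermis 2 of 7, endothelium 5 of 6, blood 1 of 4, sweat gland 2 of 5, and keratin by description. Of the 21 gene names, 19 are goat symbols in RefSeq. Alternatives covered background correction, ratio source, centring, flags, dim probes, left-out arrays, 1 probe per record, 1 value per gene and 3 other tests. The fit was tested on simulated data. Figures were drawn with matplotlib 3.10.9.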

Additional observations from a re-analysis of the deposited data

How the results depend on the processing

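Of the counts and group medians under alternatives, 99 were taken as unchanged, 4 as stronger, 2 as weaker and 1 as moved. Unchanged meant a move of at most 1.5 times (counts) or of less than the SD of the group's mean over the arrays (medians). These limits let the adipocyte median range from -0.59 to -0.23. Many of the 99 were counts of 0 that stayed 0. At an unadjusted p under 0.05, the separate channels gave 9 lipid probes lower and leaving out array 3 gave 4, in place of 6. The fit with the replicate block removed, which takes the goats as unpaired, gave 3 lipid probes lower at an unadjusted p under 0.05 in place of 6, and the pairing changed no other count of lipid probes by over 1.5 times. Feature Extraction's log ratio also gave 3. Leaving out single arrays gave 0 to 1 probes with a mean at least 2-fold lower, the 1 being LPL probe 3 without array 2. Median centring gave 10 lower and 2 higher at an unadjusted p under 0.05, 2 at an adjusted p under 0.05 and a median log2 ratio of -6e-04 for the sebaceous and fatty acid synthesis group, and over all probes it called 1880 against 1 with loess. The separate channels called 164 of all probes, and 14 were called with the authors' values.

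Means of single probes that turned sign were as follows. Under median centring they were -0.24 and -0.29 for PLIN1, 0.20 for LCAT, -0.27 for SCAP, 0.21 for SQLE probe 1, 0.0079 for APOBEC3F probe 2, 0.34 for TC62829, 0.062 for ACOT9, 0.017 for APOE, -0.38 for ACACA probe 2, 0.45 for FABP5, 0.21 for FASN probe 2, and 0.20 and 0.34 for PLIN2. PLIN1 probe 1 was -0.013 with no background correction, -0.021 with normexp without offset, and -0.053 both by Feature Extraction's log ratio and by the authors' value table. PLIN5 probe 1 was 0.0175 with no background correction and 0.0198 by both of those sources, and LCAT was 0.0033 by both. Leaving out each array gave -0.0083 to 0.071 for PLIN1 probe 2, -0.041 to 0.0056 for LCAT, -0.10 to 0.0295 for OSBPL7, -0.14 to 0.16 for PLIN5 probe 1, -0.27 to 0.0302 for FASN probe 1, -0.36 to 0.40 for SCD and -0.31 to 0.0558 for SCD5 probe 1. The cause was not tested.

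The 3 pairs of goats limit every value. Signals near background limit ACACA, and the ratios of bright probes such as PLIN2, FABP5 and APOE and of dim ones such as SCAP, PLIN1 and FASN probe 1 rest on the loess curve. Lipid markers without a probe were not analysed here.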

Other observations

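Genes of fatty acid oxidation were also on the marker lists, with 5 probes for 3 genes. CPT1B, which takes fatty acids into the mitochondria of muscle and some other tissues, had log2 ratios of 0.43, 0.26 and 0.67 with one probe and 0.34, 0.12 and 0.45 with the other, at limma adjusted p-values of 0.19 and 0.26. PPARA, the nuclear receptor of fatty acid oxidation, had 0.41, 0.21 and 0.15, at a limma adjusted p of 0.29. Both genes were higher under the short photoperiod in all 3 pairs.

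CPT1A, the liver type of the same transferase, differed strongly between single goats and in opposite directions. Its log2 ratios were -2.49, 3.57 and 0.14 with one probe and -2.48, 3.80 and 0.23 with the other. The first probe had a normalized intensity of 292, 3487 and 1819 under the short photoperiod and 1645, 294 and 1649 in the natural goats. The goat of pair 1 under the short photoperiod and the natural goat of pair 2 were low. The limma adjusted p-values of the probes were 0.86 and 0.83.

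A few further lipid genes were outside the choice by name and were picked from their descriptions. DLK1, a marker of fat cell precursors, had log2 ratios of 0.54, 0.88 and 0.07. SLC25A20, the mitochondrial carrier of acylcarnitines, had -0.38, -0.38 and -0.68, at a limma adjusted p of 0.18. ADIG, adipogenin, had -0.18, 0.13 and -0.25 with one probe and -0.14, 0.12 and -0.22 with the other. ACAD9, a member of the acyl-CoA dehydrogenase family, had -0.14, 0.21 and 0.35.

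Of the remaining marker lists, 3 skeletal muscle probes had a median log2 ratio of 0.11, the 1 epidermal probe tested, KRT14, had 1.25, 0.64 and 0.16, and 2 haemoglobin probes had means of 0.29, -2.03 and 1.05 on arrays 1, 2 and 3. On the sweat gland list, AQP5, a water channel, had 1.08, 0.52 and 0.58 with one probe and 1.04, 0.52 and 0.53 with the other, while LTF, lactoferrin, had -1.76, -3.87 and 0.46.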
